A study of Homo sapiens with 6 samples.

Results

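Spliceosomal small nuclear RNAs (snRNAs) and their copies were examined in parental cells, PGCCs (polyploid giant cancer cells) and daughter cells of 2 ovarian cancer cell lines, Hey and SKOV3. A row of the expression table was included when its symbol starts with RNU and its largest value over the 6 libraries was at least 1 TPM (transcripts per 1000000, a measure of abundance scaled for transcript length within each library). Of the 59008 gene symbols in the table, 1755 start with RNU, and 69 of these passed. The TPM values themselves chose the 69 rows, so the levels below are a description.

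Each line gave 1 untreated parental library, 1 library of PGCCs after 16 h in 500 nM paclitaxel with 3 days of recovery, and 1 library of daughter cells from the same treatment after 30 days. The title of the SKOV3 PGCC library gives day 7 while its treatment label gives 3 days. Each daughter library is titled as clone 1. Each condition was sequenced once, so a value has no replicate error, and a comparison is repeated only in the other cell line. The labels describe total RNA; whether poly(A) selection was used is not given in the sources used here.

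snRNAs are short, abundant, non-polyadenylated RNAs that form the core of the spliceosome together with Sm or LSm proteins. U1 pairs with the 5′ splice site, U2 with the branch point, and U4, U5 and U6 join as a tri-snRNP in which U6 takes part in catalysis. U11, U12, U4atac and U6atac serve the minor class of introns. The human genome also holds a very large number of snRNA-derived copies, most of them named as pseudogenes with a symbol ending in P, and a large share of these copies derive from U6.

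The markers set the background for the cultures. KRT7, KRT8 and KRT18, which encode epithelial keratins, lay between 220 and 1050 TPM in all 6 libraries, and PAX8, a Müllerian lineage factor, between 54.7 and 136 TPM. ERBB2, which is amplified in SKOV3, was at 1130 to 1780 TPM in SKOV3 and 8.2 to 14.1 TPM in Hey. The epithelial marker EPCAM was at 0.369 to 1.43 TPM in Hey and 8.15 to 68.8 TPM in SKOV3, and WT1 and MUC16 stayed at or below 4.1 TPM. The T cell marker CD3E was listed at 0 throughout. PTPRC, the other leukocyte marker, was at 0 in Hey and at 0.126, 0.283 and 0.425 TPM in SKOV3 parental cells, PGCCs and daughter cells. The endothelial markers PECAM1 and VWF reached at most 0.272 and 0.315 TPM. Of the fibroblast genes in SKOV3 parental cells, PGCCs and daughter cells, COL1A1 was at 2.35, 1.33 and 16.3 TPM, LUM at 8.84, 9.31 and 5.56 TPM and DCN at 1.33, 0.522 and 0.0292 TPM. In Hey these 3 genes stayed at or below 1.55 TPM.

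The sequences below are those of the 3 snRNA genes with values in most libraries, 2 of the major and 1 of the minor spliceosome. They come from GENCODE release 44 on GRCh38 and are written as DNA, 5′ to 3′. Capitals mark, in U1, the stretch that pairs with the 5′ splice site (ACTTACCTG); in U2, the stretch that pairs with the branch point (GTAGTA); and in U6atac, AAGGA, which contacts the 5′ splice site of minor introns.
RNU1-1: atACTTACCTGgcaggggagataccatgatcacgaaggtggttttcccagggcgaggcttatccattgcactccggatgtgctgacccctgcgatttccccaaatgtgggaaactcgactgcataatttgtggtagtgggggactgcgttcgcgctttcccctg
RNU2-1: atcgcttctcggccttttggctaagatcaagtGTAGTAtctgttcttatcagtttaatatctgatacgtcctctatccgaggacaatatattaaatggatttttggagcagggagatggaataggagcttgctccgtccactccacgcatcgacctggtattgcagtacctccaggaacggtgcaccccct
RNU6ATAC: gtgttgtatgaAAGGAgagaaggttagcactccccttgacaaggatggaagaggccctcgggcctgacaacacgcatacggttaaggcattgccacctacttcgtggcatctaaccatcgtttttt

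On GRCh38, RNU1-1 is at chr1:16514122-16514285 (minus strand), RNU2-1 at chr17:43233787-43233977 (minus) and RNU6ATAC at chr9:134164439-134164564 (minus). RNU6-5P has the same 107 bases as RNU6-1, RNU6-2, RNU6-9, RNU6-3P, RNU6-4P and RNU6-6P, none of which has a row, so the sequence of U6 itself is carried in the table by a symbol that ends in P. RNU1-1 in the same way is identical to 7 other symbols, among them RNU1-2, RNU1-3, RNU1-4 and RNVU1-18. Of 1804 RNU symbols in GENCODE, 49 had no row, and 46 of the 49 are identical in sequence to a symbol that has one. For such rows, reads from the identical copies cannot be told apart.

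The U6 rows that the results turn on are copies that have diverged from the U6 gene to different degrees. Over 107 bases, RNU6-26P differs from RNU6-1 at 5 positions, RNU6-125P at 11 and RNU6-301P at 13.

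The 69 rows were mostly copies of U6. U6 gave 44 of 1240 rows, U1 gave 9 of 104, U2 gave 5 of 71, U4 gave 4 of 90 and U5 gave 1 of 31. Of the minor class, U6atac gave 3 of 42, U4atac 2 of 18, U11 1 of 6 and U12 0 of 2. U7, which processes histone mRNA and is no spliceosomal RNA, gave 0 of 149, and 2 further rows whose symbols start with RNU but fall in none of these classes gave 0. In all, 63 of the 69 symbols end in P, and the other 6 are RNU1-1, RNU2-1, RNU5B-1, RNU11, RNU4ATAC and RNU6ATAC. The transcripts are 99 to 212 nt long.

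The genes known to make the functional snRNAs were mostly at 0. Of 16 such genes with a row, RNU12, RNU2-2P, RNU4-1, RNU4-2, RNU5A-1, RNU5D-1, RNU5E-1, RNU5F-1, RNU6-7 and RNU7-1, 10 in number, were listed at 0 in all 6 libraries. U4, which escorts U6 into the tri-snRNP, was thus represented by 4 copies alone. snRNAs are known as highly abundant RNAs, and these rows were at 0 all the same.

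**Figure D1:**
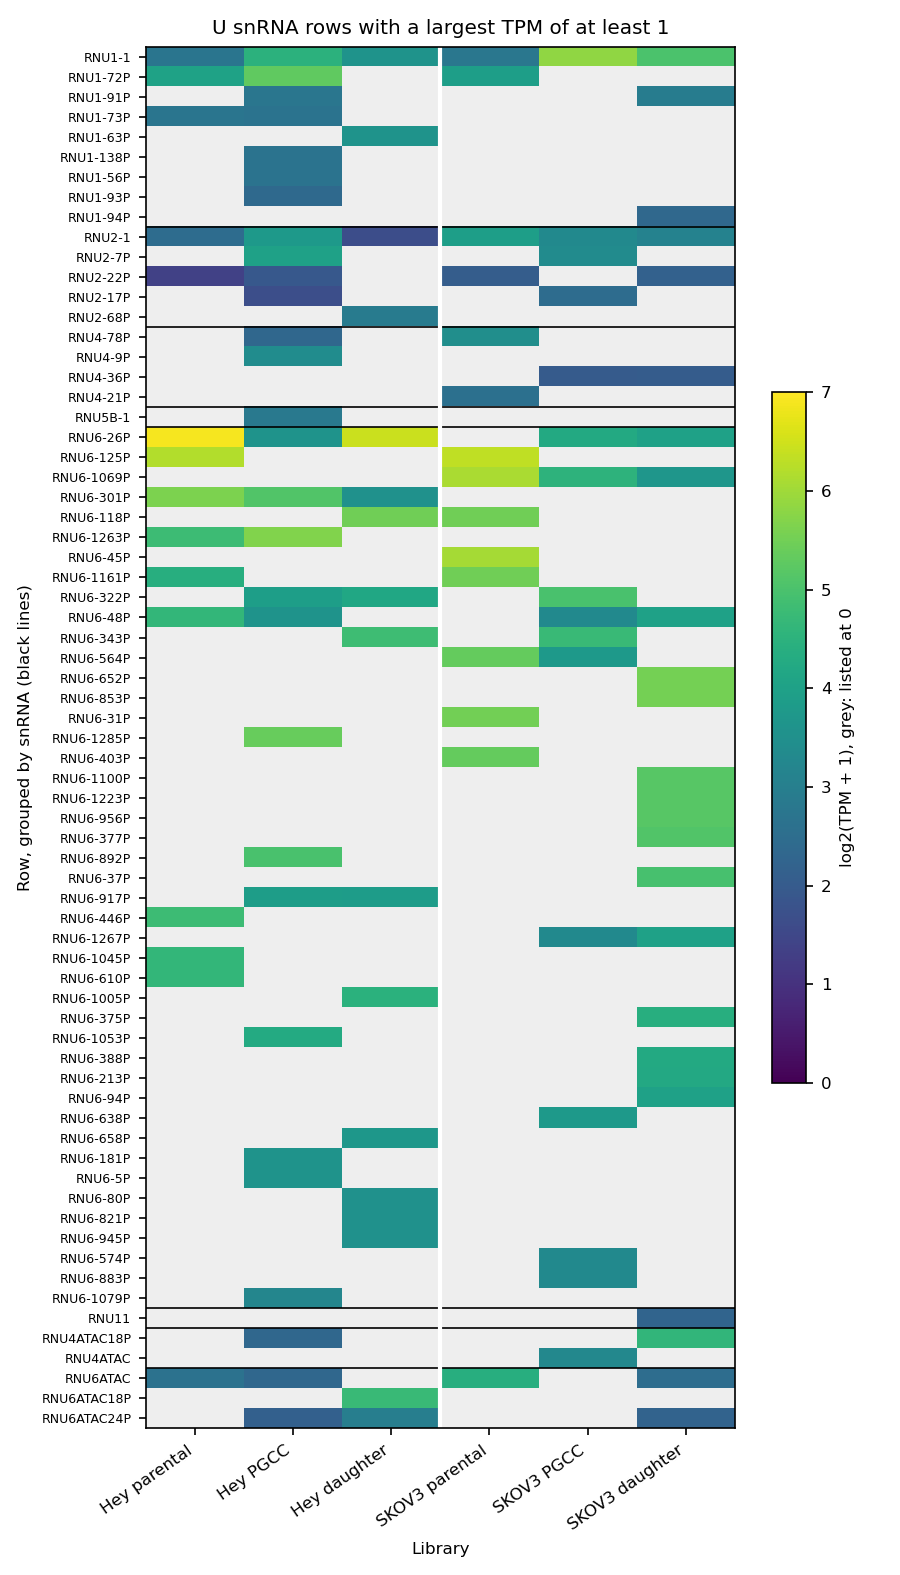
Heat map of log2(TPM + 1) for the 69 rows (vertical axis, grouped by snRNA and separated by black lines) in the 6 libraries (horizontal axis). Grey cells are listed at 0; they make up 297 of the 414 cells, and RNU1-1 and RNU2-1 are the rows with a value above 0 in all 6 libraries.

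Most rows were above 0 in a single library. Of 414 values, 297 were 0 and 117 were above 0. As the heat map shows, 43 rows had a value in 1 library, 15 in 2, 5 in 3, 3 in 4, 1 in 5 and 2 in 6. Values above 0 ran from 1.55 TPM (RNU2-22P in Hey parental cells) to 119 TPM (RNU6-26P, also in Hey parental cells).

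The threshold of 1 TPM did not trim this group. The other 1686 RNU rows were 0 in every library, and 0 rows had a largest value between 0 and 1, although 13260 symbols of the table as a whole did. The rows just inside were RNU4-36P, with 2.99 TPM in SKOV3 PGCCs and 3.1 TPM in SKOV3 daughter cells, and RNU2-22P, with 3.53 TPM in SKOV3 daughter cells. Just outside it, every row was 0.

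The number of rows above 0 was 15, 29 and 17 in the parental, PGCC and daughter libraries of Hey. In SKOV3 it was 15, 16 and 25. Hey PGCCs thus held the most snRNA rows, and also the most symbols above 0 over the whole table (25370, against 19920 to 23893 in the other 5 libraries), and SKOV3 daughter cells had the next highest number of both. The mitochondrial share of the summed TPM was also highest in these libraries, at 12.3% and 14.8% against 2.64% to 9.17% in the other 4. The part of library complexity or RNA quality in these counts was not tested. The summed TPM was 422, 404 and 326 in Hey parental cells, PGCCs and daughter cells, and 497, 250 and 480 in SKOV3. The 44 U6 rows made up most of each sum, with 384, 253 and 263 TPM in Hey and 425, 159 and 388 TPM in SKOV3.

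Short transcripts receive large TPM values from very little signal, and the values show this directly. Within a library, the rows of short RNAs of equal length held whole multiples of a single value, here called a step. Such a step was found in 69 of the 72 combinations of length and library with 2 or more short-RNA rows above 0. It covered 78 of the 117 snRNA values, which lay within 0.00047% of a whole multiple. Of these 78 values, 47 were 1 step, 14 were 2 and 8 were 3, so 88.5% were 1 to 3 steps, and the largest was 10.

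If a step is read as 1 sequenced fragment, most snRNA values rest on 1 to 3 fragments. This reading is inferred, since the table holds no counts. The methods of the study give closely similar totals of mapped reads for all samples, but not the fragments behind a row. A step can be more than 1 fragment where every row of that length has several, as at 133 nt, where it was 3.64 TPM in Hey PGCCs and 7.3 TPM in SKOV3 PGCCs. It can be less where a fragment is split between copies, as may be the case at 162 nt in Hey PGCCs, where 2 U1 variant rows held 3.03 TPM each while the step at 164 nt was 5.39 TPM.

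The TPM of 1 step depended on length and on the library. At 107 nt, the length of U6 and of 20 of the U6 rows, it was 23.9, 11.1 and 10.7 TPM in the parental, PGCC and daughter libraries of Hey. In SKOV3 it was 13.2, 9.08 and 15.1 TPM. The same number of steps therefore differed 2.63-fold in TPM between libraries. At 164 nt, the length of U1, it ran from 5.39 to 6.26 TPM, a range of 1.16-fold. The step did not fall steadily with length: in Hey parental cells it was 3.74 TPM at 137 nt and 15.4 TPM at 153 nt. A single step at 107 nt was higher than most expressed genes: 23.9% to 38.1% of the symbols above 0 in a library were at or above it.

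**Figure D2:**
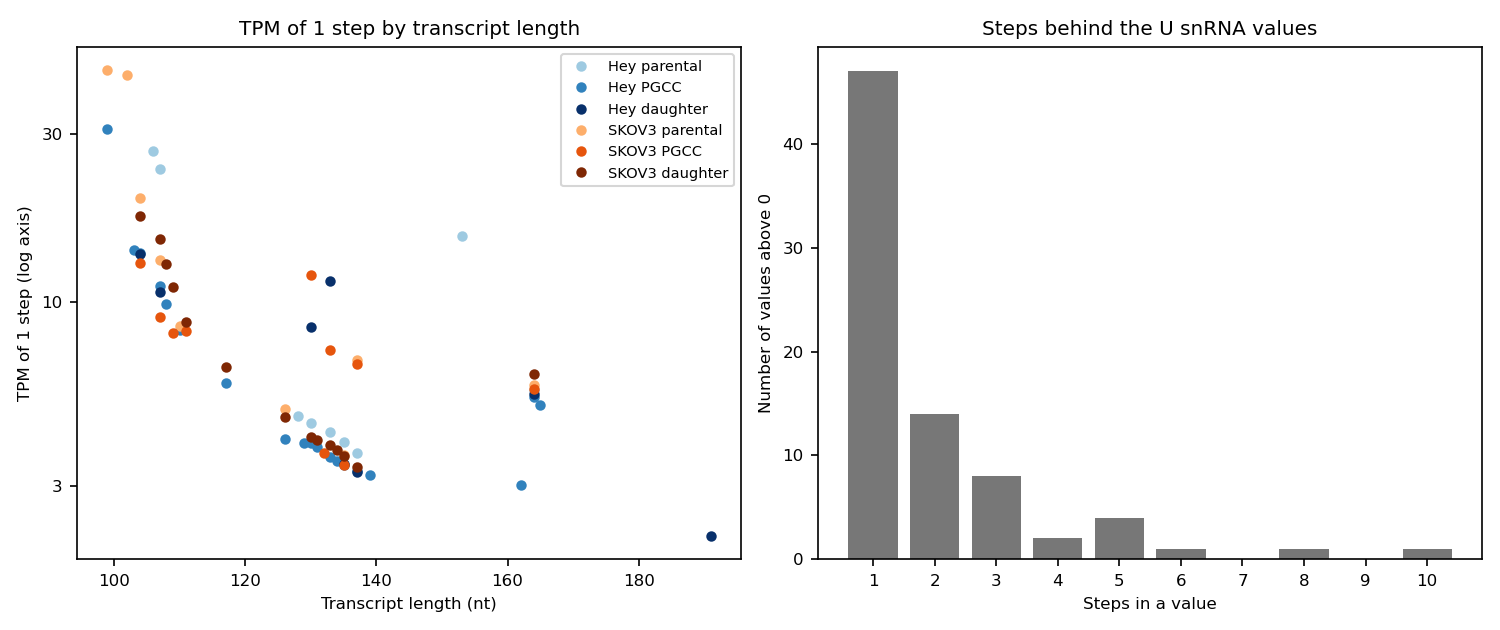
Left, the TPM of 1 step (vertical, log axis) against transcript length in nt (horizontal) for each length and library with a step, coloured by library. Right, the number of snRNA values (vertical) by the steps they hold (horizontal); 47 of the 78 values are 1 step, and at 107 nt a step is 9.08 to 23.9 TPM.

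The order of the summed values changed in both lines once steps were counted. Hey parental cells, PGCCs and daughter cells held 18, 25 and 27 steps over the values that have one, and SKOV3 held 25, 23 and 33. In Hey the order was reversed, with parental cells highest in summed TPM and lowest in steps. SKOV3 PGCCs had the lowest summed TPM, 250, and nearly the same number of steps as SKOV3 parental cells. Values without a step, 4 to 11 in a library and the most in Hey PGCCs, are not in these sums.

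RNU1-1, the U1 gene sequence, was with RNU2-1 1 of 2 rows above 0 in every library, and it had a step in each. In Hey it was at 5.63 TPM (1 step) in parental cells, 21.5 TPM (4 steps) in PGCCs and 10.99 TPM (2 steps) in daughter cells. In SKOV3 it was at 5.8 TPM (1 step), 56.5 TPM (10 steps) and 31.3 TPM (5 steps). In both lines PGCCs were highest, daughter cells lay between and parental cells were lowest.

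Read as fragments, these counts leave wide intervals. The exact 95% Poisson interval, which covers counting error only, ran from 0.0253 to 5.57 for 1 step, from 1.09 to 10.2 for 4 and from 4.8 to 18.4 for 10. The interval of SKOV3 PGCCs therefore still overlapped that of SKOV3 parental cells, and the 2 Hey intervals also overlapped, from 1.09 to 5.57. Overlap of separate intervals does not decide whether counts differ beyond counting error, and the difference between counts was not tested.

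RNU2-1, the U2 gene, was at 4.51, 12.8 and 2.17 TPM in Hey parental cells, PGCCs and daughter cells. In SKOV3 it was at 14.2, 8.96 and 7.62 TPM. PGCCs were highest in Hey and lay between the other libraries in SKOV3, so the order was not shared. RNU2-1 lies in an intron of CCDC200 on the same strand.

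The other 4 gene symbols without a P had few values. RNU6ATAC was at 5.25, 4.08 and 0 TPM in Hey parental cells, PGCCs and daughter cells, and at 19.9 (4 steps), 0 and 4.71 TPM in SKOV3. The 4.08 and 4.71 TPM are 1 step each, and the 5.25 TPM has no step known. RNU6ATAC was highest in parental cells in SKOV3. In Hey, PGCCs differed from parental cells by only -0.3 on the log2(TPM + 1) scale. RNU4ATAC, which pairs with U6atac, was above 0 in SKOV3 PGCCs alone, at 8.64 TPM. RNU5B-1, which contacts exon ends in the major spliceosome, was above 0 in Hey PGCCs alone, at 6.15 TPM, and RNU11, which recognizes the 5′ splice site of minor introns, in SKOV3 daughter cells alone, at 3.81 TPM (1 step).

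RNU6-5P, the row with the U6 gene sequence, was at 11.1 TPM in Hey PGCCs, which is 1 step, and at 0 in the other 5 libraries. RNU6-7, which differs from it at 1 position, was at 0 in all 6. Apart from the 11.1 TPM in Hey PGCCs, the U6 sum of 159 to 425 TPM per library thus came from copies that differ from the U6 gene.

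**Figure D3:**
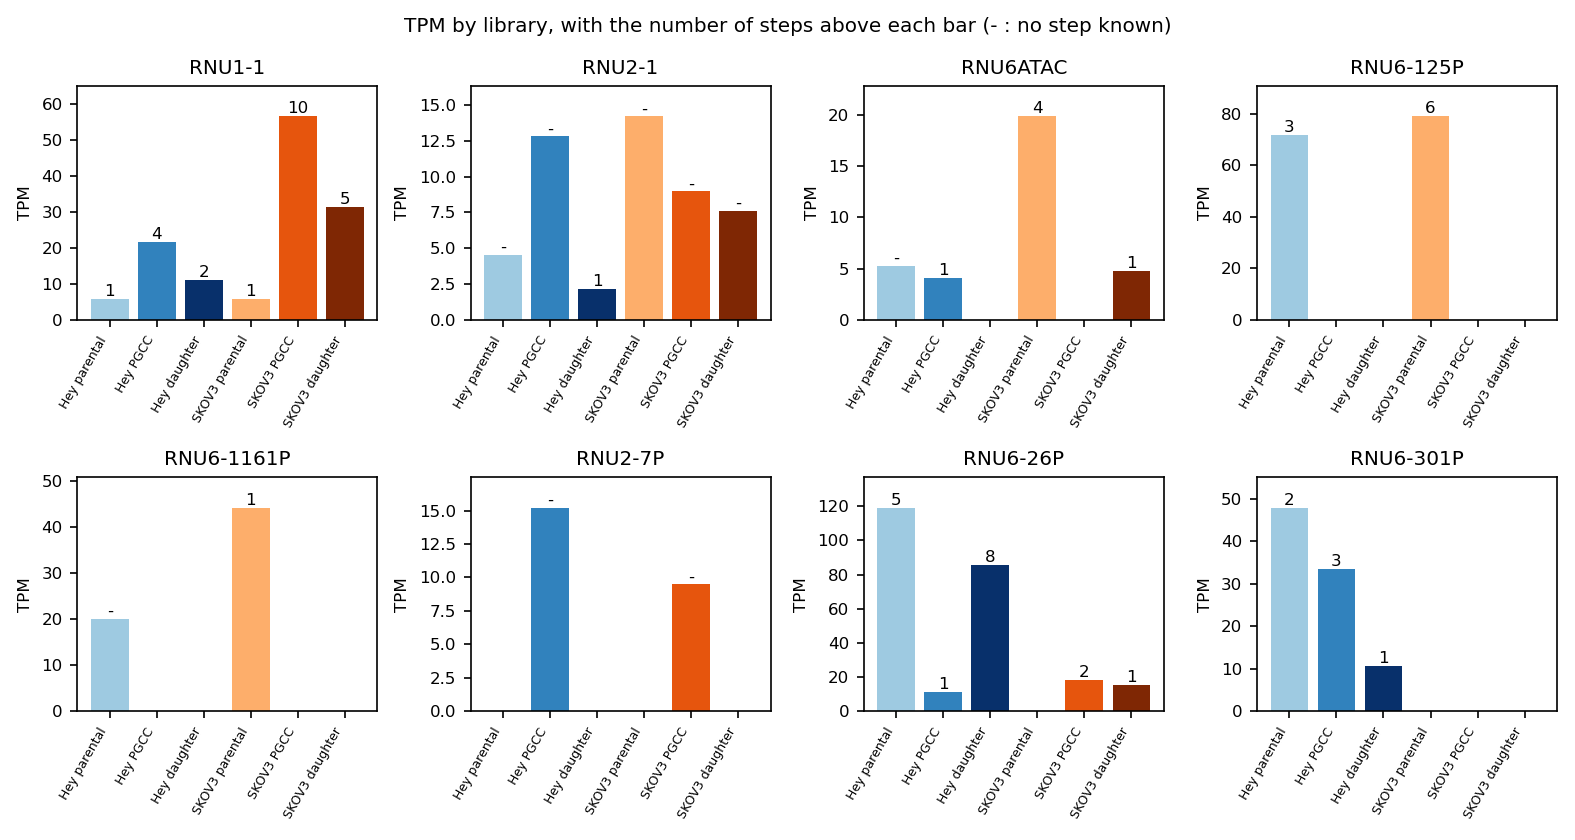
TPM (vertical axis, one scale per panel) of 8 rows in the 6 libraries (horizontal axis), with the number of steps above each bar and a dash where no step is known. RNU1-1 is highest in PGCCs of both lines (21.5 and 56.5 TPM), RNU6-125P is above 0 in both parental libraries alone (71.7 and 78.9 TPM), and RNU6-301P in Hey alone.

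The comparison of PGCCs with parental cells asked which RNAs differ once giant cells have formed. In Hey, 22 of the 69 rows were higher and 7 lower in PGCCs at a difference of log2(TPM + 1) of at least 1, a 2-fold change on that scale. In SKOV3, 13 were higher and 13 lower. Of the 18214 symbols that could reach this difference, those with a largest TPM of at least 1, 8.35% were higher and 4.55% lower in Hey and 9.33% and 4.92% in SKOV3. The snRNA shares were 31.9% and 10.1% in Hey and 18.8% and 18.8% in SKOV3, and the median difference over the 69 rows was 0 in both lines.

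Nearly all of these calls set a value against a 0. This was so for 19 of the 22 and 5 of the 7 in Hey, and for 12 and 11 of the 13 in each direction in SKOV3. A further setting, chosen after seeing the data, asked that the larger value be at least 3 steps. A value without a step could not meet it whatever its size, which removed 9 of the 22 and 1 of the 7 calls in Hey and 5 and 4 of the 13 in each direction in SKOV3, among them RNU2-1 (12.8 TPM) and RNU2-7P (15.2 TPM) in Hey PGCCs. Of the calls that have a step, 2 rows were left higher (RNU1-1 and RNU4-9P) and 2 lower (RNU6-125P and RNU6-26P) in Hey. In SKOV3, RNU1-1 was left higher, and RNU6-125P, RNU6-45P and RNU6ATAC lower. RNU1-1 and RNU6-125P are the rows left in both lines under this setting. RNU6-125P was included only through the parental libraries, where it is high, so its lower call rests on the values that chose it.

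Over both lines, 4 rows were higher in PGCCs (RNU1-1, RNU2-7P, RNU2-17P and RNU6-322P), beside 0.785% of the 18214 symbols. RNU2-7P was at 15.2 TPM in Hey PGCCs and 9.48 TPM in SKOV3 PGCCs, and RNU2-17P at 2.19 and 4.58 TPM. Both are copies of U2 and were listed at 0 in the other 4 libraries. They were included through the PGCC libraries alone, so the count of rows higher in both lines partly rests on the values that chose them. RNU6-322P was at 14.1 TPM (1 step) in Hey PGCCs and 30.5 TPM (no step known) in SKOV3 PGCCs. It was at 0 in both parental libraries, but also at 16.9 TPM (no step known) in Hey daughter cells. RNU1-1 differed by 1.77 in Hey and 3.08 in SKOV3 on the log2(TPM + 1) scale.

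RNU6-125P and RNU6-1161P, both U6 copies, were lower in PGCCs of both lines, beside 0.697% of all symbols. Both were included through the parental libraries alone, so this count rests on the values that chose them. RNU6-125P was at 71.7 TPM (3 steps) in Hey parental cells and 78.9 TPM (6 steps) in SKOV3 parental cells, and at 0 in the other 4 libraries. If a step is 1 fragment, a count of 0 allows up to 3 fragments, which is 27.2 to 45.4 TPM in these 4 libraries. Both parental values lie above this in TPM. As observed steps, the 3 of Hey parental cells only equal what a 0 allows and the 6 of SKOV3 parental cells exceed it. Their exact 95% Poisson intervals, 0.619 to 8.77 and 2.2 to 13.1, both include 3, and the difference from 0 was not tested. The step behind the 6 was itself 65.8 TPM divided by 5, with only 2 rows of that length above 0. RNU6-1161P was at 20.0 TPM (no step known) and 44.1 TPM (1 step) in the Hey and SKOV3 parental libraries and at 0 in the other 4.

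A fit over both lines set these changes against the disagreement between the lines. limma was run on log2(TPM + 1) with terms for line and state over 14988 symbols with a mean TPM of at least 1, which 63 of the 69 rows passed. At an adjusted p under 0.05 it called 2 symbols lower (0.0133%), of which RNU6-125P was 1, and 1 higher (0.00667%). RNU6-125P entered the 69 rows and the fit through the parental libraries alone, the libraries in which it is high. Its call and its p thus rest on the values that chose it, so the call is no test of a change and the p is not given. RNU1-1, which is above 0 in all 6 libraries, was higher by 2.42 on the log2(TPM + 1) scale (SE 0.475) and did not pass (adjusted p = 1 by limma, unadjusted p = 0.00121).

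Rows also went opposite ways in the 2 lines. In Hey, RNU6-26P was at 119 TPM (5 steps) in parental cells, 11.1 TPM (1 step) in PGCCs and 85.3 TPM (8 steps) in daughter cells. In SKOV3 it was at 0, 18.2 TPM (2 steps) and 15.1 TPM (1 step). It was thus lowest in PGCCs in Hey, and lowest in parental cells in SKOV3. RNU1-72P was at 15.4, 38.3 and 0 TPM in Hey and at 14.2, 0 and 0 TPM in SKOV3. RNU4-78P and RNU6-48P were the other rows called in opposite directions, and the 4 together compare with 1.07% of all symbols.

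The comparison of daughter cells with parental cells asked what differs after the giant cells have given rise to progeny. In Hey, 13 of the 69 rows were higher and 12 lower in daughter cells, beside 6.39% and 3.49% of the 18214 symbols. In SKOV3, 21 were higher and 12 lower, beside 16.5% and 6.34%. All 13 and 11 of the 12 in Hey, and 20 of the 21 and 10 of the 12 in SKOV3, were calls against a 0.

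RNU6ATAC24P, a U6atac copy, was the 1 row higher in daughter cells of both lines, at 6.96 TPM (2 steps) in Hey and 3.65 TPM (1 step) in SKOV3 against 0 in both parental libraries, beside 1.04% of all symbols. The 4 rows lower in both lines were RNU1-72P, RNU6-1161P, RNU6-125P and RNU6ATAC, beside 0.335%. RNU6-1161P and RNU6-125P were included through the parental libraries alone, so this count partly rests on the values that chose them. RNU6-125P was 1 of 2 symbols (0.0133%) that limma called lower in daughter cells. As above, it entered the fit through the parental libraries alone, which both comparisons share. Its call rests on the values that chose it, and its p is not given. RNU1-1 differed by 0.86 in Hey and 2.25 in SKOV3.

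RNU6-118P and RNU6-48P went opposite ways, beside 1.24% of all symbols. RNU6-118P was above 0 in Hey daughter cells at 43.5 TPM (no step known) and in SKOV3 parental cells at 44.1 TPM (1 step), and at 0 elsewhere. RNU6-48P was at 23.9, 11.1 and 0 TPM in Hey parental cells, PGCCs and daughter cells and at 0, 9.08 and 15.1 TPM in SKOV3, and each of these values is 1 step. The lower value in Hey PGCCs than in Hey parental cells is thus the same number of steps at a smaller TPM per step.

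The comparison of PGCCs with daughter cells set the giant cells against their progeny. In Hey, 24 rows were higher and 11 lower in PGCCs, beside 8.58% and 8.94% of all symbols. In SKOV3, 9 were higher and 18 lower, beside 9.03% and 15.6%. The counts pointed to PGCCs in Hey and to daughter cells in SKOV3, as did the number of rows above 0 in these libraries (29 against 17, and 16 against 25).

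Compared with daughter cells, RNU2-7P and RNU2-17P were higher in both PGCC libraries, with the values given above, beside 0.95% of all symbols. Lower in both lines were 0 rows, beside 1.04%. Opposite calls, beside 2.48%, were found for RNU1-91P, RNU2-22P, RNU4ATAC18P, RNU6ATAC and RNU6-343P. By limma 0 rows and 0 of the 14988 symbols passed in this comparison. At an unadjusted p under 0.05 by limma, 297 symbols were higher (1.98%) and 461 lower (3.08%), and of the snRNA rows 2 were higher and 0 lower. These 2, RNU2-7P and RNU2-17P, entered the 69 rows and the fit through the PGCC libraries alone, where they are high. Their p and their count beside all symbols rest on the values that chose them, and the p is not given.

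**Figure D4:**
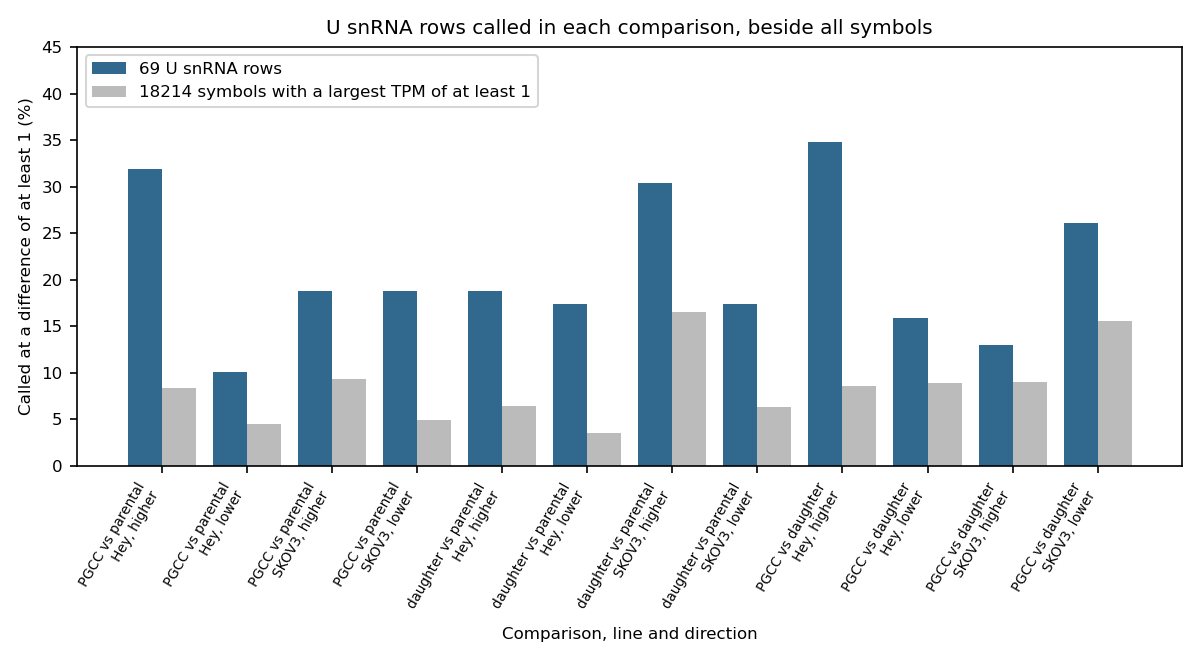
Percentage of the 69 snRNA rows (blue) and of the 18214 symbols with a largest TPM of at least 1 (grey) called at a difference of at least 1 (vertical axis) in each comparison, line and direction (horizontal axis). The snRNA share is the larger in all 12 pairs, for example 31.9% against 8.35% for rows higher in Hey PGCCs, and nearly all snRNA calls set a value against a 0.

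The snRNA shares exceeded those of all symbols in every comparison and in both directions, as the plot of called shares shows. A row whose smallest non-zero value is many TPM is called whenever it is above 0 in one library and 0 in the other, whatever the number of steps. At 1 to 3 steps, a difference from 0 is not detectable at this depth if a step is 1 fragment.

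Positions of the rows in the genome were not used to choose them. Of the 69, 51 (73.9%) lie in an intron of another gene on the same strand, against 509 of the 1686 RNU rows at 0 (30.2%). For U6 alone it was 33 of 44 (75.0%) against 354 of 1196 (29.6%). A further 2 lie in an intron on the opposite strand, 14 are intergenic, and 2 overlap an exon (RNU1-138P in CAMK2D on the opposite strand, and RNU11 in a long noncoding RNA on the same strand).

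The genes that hold the rows were also more highly expressed. Where the host on the same strand had a row in the table, its median mean TPM was 29.0 for the 44 hosted snRNA rows and 9.0 for the 416 hosted rows at 0. Hosts of at least 10 TPM held 52.2% of the 69 rows and 11.9% of the 1686. Reads from an unspliced host transcript and from the copy itself cannot be told apart in these data, and their share was not tested. An upstream TTATA, searched on the same strand 40 to 16 bases before the start where U6 genes carry a TATA box, was found in 2 of the 44 U6 rows (4.55%) and 59 of 1196 others (4.93%), against 3 of 5 U6 genes.

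Single hosts illustrate the range, with RNU6-853P chosen after its values were seen. RNU6-301P, in an intron of FRMD6, was at 47.8, 33.4 and 10.7 TPM (2, 3 and 1 steps) in Hey parental cells, PGCCs and daughter cells and at 0 in SKOV3. FRMD6, which encodes a FERM domain protein of Hippo signalling, was at 285, 319 and 485 TPM in Hey and at 31.7 to 41.6 TPM in SKOV3. Copy and host were thus both higher in Hey. Within Hey the TPM of the copy ran opposite to that of the host, but its steps were highest in PGCCs, and the TPM of 1 step differs between these libraries.

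RNU4ATAC18P, in an intron of SOD2 (mitochondrial superoxide dismutase), was at 4.08 TPM in Hey PGCCs and 23.6 TPM (5 steps) in SKOV3 daughter cells and at 0 in the other 4. SOD2 was at 38.0, 500.0 and 53.9 TPM in Hey parental cells, PGCCs and daughter cells and at 75.3, 165 and 266 TPM in SKOV3, so that in each line the copy was above 0 in the library where the host was highest. RNU6-853P, in an intron of PALLD (palladin, an actin-binding protein), was at 45.4 TPM (3 steps) in SKOV3 daughter cells, where PALLD was at 132 TPM against 14.6 to 35.4 TPM in the other 5 libraries.

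**Figure D5:**
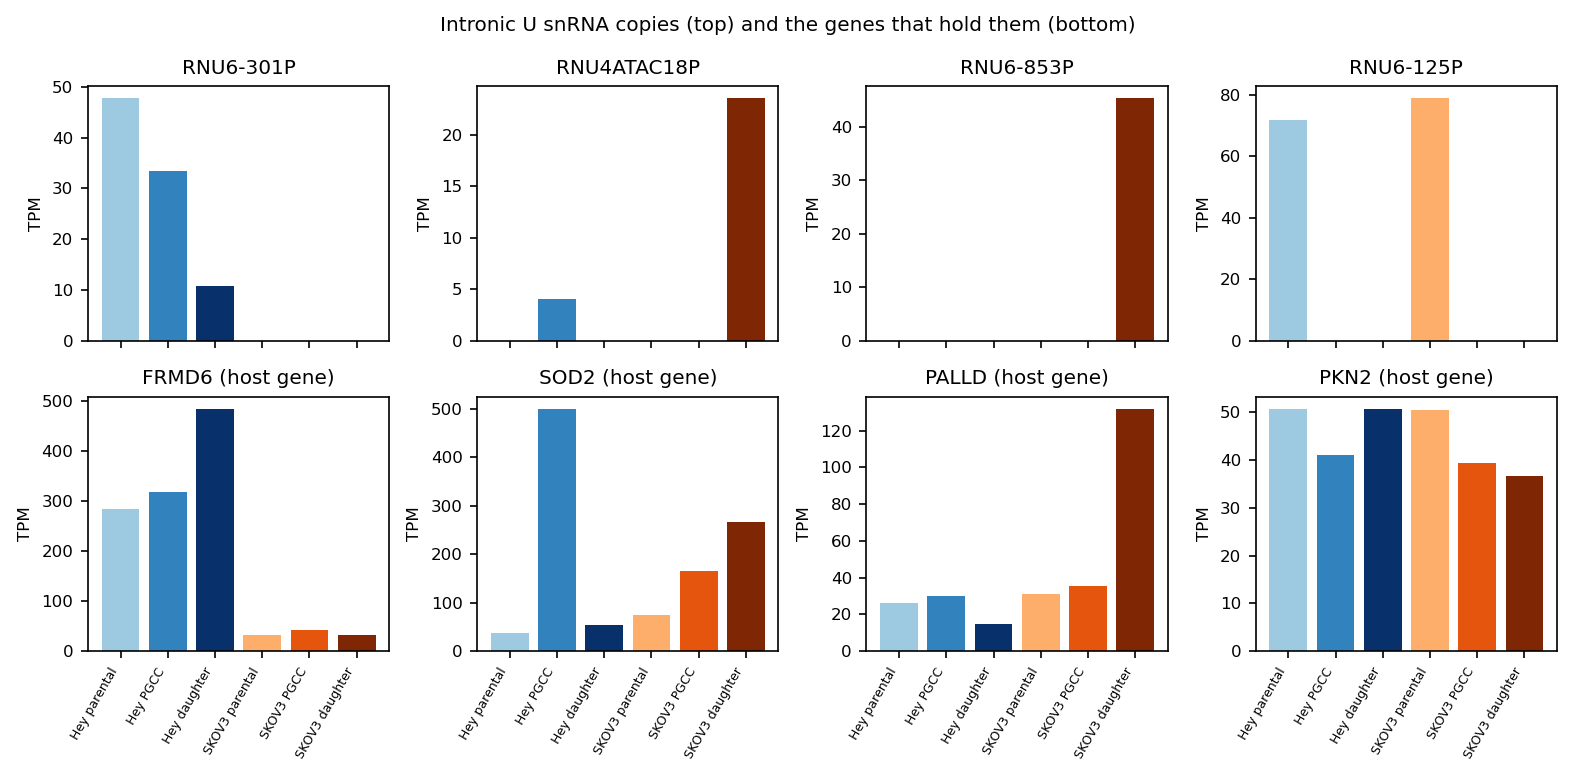
TPM (vertical axis, one scale per panel) of 4 intronic snRNA copies (top row) and of the genes that hold them (bottom row) in the 6 libraries (horizontal axis). RNU6-301P, RNU4ATAC18P and RNU6-853P are above 0 where their hosts are high, while RNU6-125P is above 0 in both parental libraries although PKN2 lies between 36.7 and 50.8 TPM throughout.

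This did not hold in general. RNU6-125P lies in an intron of PKN2, a protein kinase C-related kinase, which was at 50.8, 41.1 and 50.7 TPM in Hey and 50.6, 39.5 and 36.7 TPM in SKOV3 and so varied little where the copy went from 71.7 or 78.9 TPM to 0. RNU6-26P lies in an intron of DCBLD2, at 351, 366 and 266 TPM in Hey and 113, 70.9 and 225 TPM in SKOV3. The host was higher in Hey, where the copy was at 119 and 85.3 TPM in parental and daughter cells. Within Hey the copy was lowest in PGCCs, at 11.1 TPM, where the host was about as high as in parental cells. Of the 44 hosted rows, 9 (20.5%) had their largest value in the library where the host was largest, of 6 libraries.

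Proteins of the snRNPs were compared next, since snRNAs act only as particles with them. Over all 18214 symbols the shares were, as above, 8.35% higher and 4.55% lower in Hey and 9.33% and 4.92% in SKOV3. Of the 16 Sm and LSm proteins, which form the rings on snRNAs, 0 were called in Hey PGCCs against parental cells and 2 were lower in SKOV3. Of 30 proteins of the U1, U2, U5 and U4/U6 particles, 1 was lower in Hey, and 2 were higher and 1 lower in SKOV3. Of 8 minor spliceosome proteins 0 were called in either line. Median differences of these lists lay between -0.37 and 0.22.

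Genes that make and assemble snRNAs gave 0 to 3 calls per list and line in PGCCs against parental cells, to be read beside the same shares of all symbols. Of 14 snRNA transcription genes (such as the SNAPC subunits), 0 were called in Hey, and 2 were higher and 1 lower in SKOV3. Of 14 Integrator subunits, which cleave the 3′ end of nascent snRNAs, 2 were lower in Hey and 1 was higher in SKOV3. Of 11 genes of the SMN complex, which loads Sm rings, 1 was lower in Hey and 0 in SKOV3. Of 14 processing and export genes 0 were called in Hey, and 1 was higher and 1 lower in SKOV3. Of 4 genes of the U7 particle and histone mRNA, 0 were called in Hey and 1 was higher in SKOV3. In none of these protein lists was a gene called the same way in Hey and SKOV3.

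Against daughter cells, Hey PGCCs had lower levels of 10 of the 30 snRNP protein genes and 3 of the 14 Integrator genes, beside 8.94% of all symbols. In SKOV3 PGCCs 1 of the 30 was lower and 3 were higher, beside 15.6% and 9.03%, and 0 Integrator genes were called. SF3A2, a U2 snRNP protein chosen after its values were seen, was at 29.5, 17.4 and 48.0 TPM in Hey parental cells, PGCCs and daughter cells and at 30.2, 67.1 and 25.3 TPM in SKOV3. It was lowest in PGCCs in Hey and highest in PGCCs in SKOV3.

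A list of other abundant short RNAs that, like snRNAs, lack a poly(A) tail also differed between the lines. RN7SK, which holds P-TEFb inactive, was at 43.6, 23.0 and 35.1 TPM in Hey parental cells, PGCCs and daughter cells and at 2.54, 25.3 and 18.1 TPM in SKOV3. RMRP, the RNA of RNase MRP, was at 25.0, 4.51 and 14.9 TPM in Hey and at 0, 10.6 and 5.42 TPM in SKOV3. Of 5 such RNAs with a largest TPM of at least 1, 4 were called lower in Hey PGCCs and 4 higher in SKOV3 PGCCs than in parental cells. Of all symbols, 4.55% were lower in Hey and 9.33% higher in SKOV3. The RNA not called went the same way in each line, RN7SK by -0.89 in Hey and RN7SL2 by 0.52 in SKOV3. RNU1-1 was higher in PGCCs of both lines, so in SKOV3 it moved with these RNAs and in Hey against them; the part of non-polyadenylated RNA carried into each library was not tested.

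Other short RNA families reached 1 TPM in very different shares of their symbols. Of 286 SNORD symbols 15 had a largest TPM of at least 1, as had 51 of 154 SNORA, 16 of 28 SCARNA, 18 of 1804 MIR and 10 of 25 RNVU1 symbols (U1 variants). Those called the same way in Hey and SKOV3 PGCCs were SNORD46, SNORA66 and MIR573 (lower) and SNORA75, SCARNA21, SCARNA10 and MIR635 (higher). MIR573 was at 43.6 and 91.1 TPM in Hey and SKOV3 parental cells and at 0 in the other 4 libraries, the same pattern as RNU6-125P. MIR635 was at 41.7 and 44.3 TPM in the PGCCs and at 0 in the others.

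Base composition moved with the SKOV3 comparison. Across 13468 symbols that averaged 1 TPM or more and have a GENCODE transcript, the Spearman correlation of GC content with the difference between PGCCs and parental cells was 0.722 in SKOV3 and -0.0455 in Hey. The symbols share the same libraries and are not independent. The snRNA rows have a median GC content of 42.6% (31.8% to 54.3%), and the 3227 symbols with 40% to 45% GC had a median difference of -0.36 in SKOV3 and 0 in Hey. RNU1-1, at 54.3% GC, is the richest of the rows. The part of GC content in the snRNA differences was not tested.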

How the data were processed

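RNA from 6 libraries, 1 per line and state, was sequenced. Per the methods and the submitters' processing notes, the authors trimmed reads with fastp and ran Salmon 0.14.1 on the hg38 transcriptome, and the deposited table gives TPM per gene symbol (columns summed to 911825 to 920497). The annotation release, the step that sums transcripts, bias options and strand are not given in the sources used here. TPM holds no counts, so no count model was used.

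Differences of log2(TPM + 1) were taken within a line and called at 1, with no test. limma 3.58.1 in R 4.3.3 (line and state, trend, Benjamini-Hochberg adjustment, 14988 symbols) was the second approach. All 6 libraries are numbered replicate 1, so the number marks no pairs. The line term groups the libraries of a line. On simulated data, of which 14921 genes passed the filter, 200 of 200 genes changed 4-fold between PGCCs and parental cells were recovered, with 7 false calls. The simulated lines shared the same means, with noise smaller than the spread of the snRNA rows. The simulation therefore checks the code and does not show what the fit can detect in these data. A step was the smallest value of a length class divided by 1 to 6, if all values were whole multiples within 0.1%. Lengths, positions and sequences are from GENCODE release 44 (GRCh38), matched by symbol. Python 3.11.15, numpy 2.4.6, pandas 2.3.3 and biopython 1.88 were used.

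Named rows were those without a final P, those called alike or oppositely in both lines (up to 5), the 10 highest means, those at the threshold, those above 0 throughout and those past limma; of companion lists, genes called alike in both lines. Members and lists were chosen with earlier results of these data known. Some U6 sequences are not reported here.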

Additional observations from a re-analysis of the deposited data

Results flagged for a closer look

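Rows were noted here where they were called in opposite directions in the 2 lines; with 1 library per line and state, none of these differences between lines was tested. Differences are of log2(TPM + 1), Hey first and SKOV3 second, and their size depends on the pseudocount wherever a library is at 0. In PGCCs compared with parental cells they were -3.31 and 4.26 for RNU6-26P, 2.34 and -3.45 for RNU4-78P, 1.26 and -3.93 for RNU1-72P, and -1.04 and 3.33 for RNU6-48P. In daughter cells compared with parental cells they were 5.47 and -5.49 for RNU6-118P and -4.64 and 4.01 for RNU6-48P. In PGCCs compared with daughter cells they were -4.82 and 4.75 for RNU6-343P, 2.74 and -2.93 for RNU1-91P, 2.34 and -4.62 for RNU4ATAC18P, 2.34 and -2.51 for RNU6ATAC, and 1.92 and -2.18 for RNU2-22P.

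The 5 listed RNAs of 7SK, 7SL, RMRP and RPPH1, which also lack a poly(A) tail, went opposite ways in PGCCs compared with parental cells, again untested. The differences were -0.89 in Hey and 2.89 in SKOV3 for RN7SK, -1.54 and 1.43 for RN7SL1, -1.73 and 0.52 for RN7SL2 (the 7SL RNAs of the signal recognition particle), -2.24 and 3.54 for RMRP, and -1.67 and 1.92 for RPPH1, the RNA of RNase P. The SNORA, SCARNA and RNY families did not share this pattern. Of 51 SNORA symbols, 20 were higher and 8 lower in Hey PGCCs, and 10 and 5 in SKOV3 PGCCs. Of 16 SCARNA symbols these were 4 and 1 in Hey and 3 and 1 in SKOV3, and of 4 RNY symbols 0 were called. Of all symbols, 8.35% were higher and 4.55% lower in Hey, and 9.33% and 4.92% in SKOV3.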

How the results depend on the processing

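Counts of called rows stayed within 1.5 times of the values above with a pseudocount of 0.1, a threshold of 3-fold, a mean TPM of at least 1 or division by the median ratio, as did the summed TPM under each alternative. With a pseudocount of 10, rows higher in PGCCs than parental cells numbered 9 in Hey and 5 in SKOV3, and than daughter cells 10 and 4. With a largest TPM of at least 10 (49 rows), these were 12 and 8, and 13 and 5. With at least 3 steps, added after seeing the data, 24 of 175 calls were left, where 61 calls had no step for the larger value and so could not pass: for PGCCs and parental cells 2 higher and 2 lower in Hey and 1 and 3 in SKOV3, for daughter and parental cells 1 and 1, and 4 and 3, and for PGCCs and daughter cells 2 and 2, and 0 and 3. By limma, 1 row passed in PGCCs against parental cells, 1 in daughter cells against parental cells and 0 between PGCCs and daughter cells. The row was RNU6-125P each time, which entered the fit through the parental libraries alone, so its passing rests on the values that chose it. Without the replicate block (the cell line term) the numbers of rows passing were 0, 0 and 0. The filter at a largest TPM of at least 1 gave 2 in the first comparison, and a pseudocount of 10 gave 0 in the second. The row added by that filter, RNU6-1161P, is likewise above 0 in the parental libraries alone. With 1 library left out they ranged from 0 to 0, 0 to 12 and 0 to 11; the 12 and 11 came without Hey daughter cells, where SKOV3 alone carries the daughter state, assumed to vary like the others, and 1 residual degree of freedom is left. No direction was reversed. Of 88 called differences of named rows, 40 were under 1 with a pseudocount of 10. The 1 to 3 steps behind most values limit every call.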
